A study of Homo sapiens with 6 samples.

Results

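The expression of 9 genes of phosphatidylserine handling was compared in HEK293 cells with and without GSK-A1. They were picked by symbol from the 63140 genes of the deposited count table: the synthases PTDSS1 and PTDSS2, the decarboxylase PISD, the flippases ATP11A, ATP11B and ATP8A1 with their subunit TMEM30A, and the scramblases ANO6 and XKR8. All 9 genes were present and passed the low-count filter that left 16754 genes for testing. HEK293 is an established human line of embryonic kidney origin, treated here at confluence. In each group 3 libraries were made: cells on dimethyl sulfoxide (DMSO), the control, and cells on GSK-A1, a small-molecule inhibitor of the lipid kinase PI4KA, at 100 nM for 24 h. No genetic change to the line is named in the labels. The labels call the replicates biological without saying how the cultures were separated, so p-values measure the spread between these libraries.

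Phosphatidylserine is an acidic phospholipid that cells keep on the cytosolic face of the plasma membrane. It is made in the endoplasmic reticulum by exchanging the head group of an existing phospholipid for serine, and part of it is moved to mitochondria and decarboxylated to phosphatidylethanolamine. P4-ATPase flippases pump it from the outer to the inner leaflet, and scramblases let it cross in both directions when calcium or caspases activate them. Phosphatidylinositol 4-phosphate, the product of PI4KA, is exchanged for phosphatidylserine by the transfer proteins ORP5 and ORP8 where the endoplasmic reticulum meets the plasma membrane.

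Of the 9 genes, 4 rose with GSK-A1: ATP11B, ANO6, ATP11A and TMEM30A, by 12.6% to 25.4%. None of the 9 fell. The synthases PTDSS1 and PTDSS2, the flippase ATP8A1 and the scramblase XKR8 did not pass the test, and their groups overlapped. PISD lay higher in all 3 GSK-A1 libraries than in all 3 DMSO libraries without passing the test. The threshold was a Benjamini-Hochberg adjusted p under 0.05 in edgeR's quasi-likelihood test, adjusted over all genes tested. By that rule 22.9% of all genes tested were called, 12.0% higher and 10.9% lower. The groups did not overlap in 5 of the 9 genes, against 40.5% of all genes tested. The median log2 fold change was 0.12 over the 9 genes and -0.01 over all genes tested.

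Total counts per library ranged from 33040178 to 47777233, and the 9 genes had between 505 and 8690 counts in a library, XKR8 the fewest. GSK-A1 replicate 2 stood apart from the other GSK-A1 libraries: the chi-square statistic per gene was 2.88 between GSK-A1 replicates 1 and 3 and 10.98 and 15.52 in the pairs with replicate 2. Between DMSO libraries and GSK-A1 replicates 1 and 3 the statistic was 8.94 to 12.88. GSK-A1 replicate 2 thus differed from its own group about as much as those replicates differed from DMSO. The mitochondrial share of counts in GSK-A1 replicate 2 was 4.04%, against 5.12% to 5.68% in the other 5 libraries. Results that rest on it are given with and without it. PI4KA mRNA, which an inhibitor of the protein need not alter, stood at 179 to 188 CPM with DMSO and 171 to 184 CPM with GSK-A1. CPM are counts divided by the scaled library total, on the usual CPM scale. Of 8 markers of the line, NEFL, VIM, KRT8, KRT18, LHX1 and PAX2 were detected, and NEFM and INA lay at or under 0.38 CPM in all libraries. The summed level of these 8 was 2037 to 2110 CPM with DMSO and 2184 to 2375 CPM with GSK-A1, and was carried by VIM and NEFL. Of these markers VIM (0.17, edgeR adjusted p = 0.00423) and KRT8 (0.11, edgeR adjusted p = 0.0373) were called higher and PAX2, from 2.71 to 2.00 CPM, lower (-0.43, edgeR adjusted p = 0.0177). NEFL, KRT18 and LHX1 did not pass. The part of these markers in the results was not tested. Markers of leukocytes, endothelium and hepatocytes lay at or under 0.18 CPM, and of the fibroblast markers COL1A1 stood at 4.86 to 7.24 CPM and DCN at up to 0.30 CPM. In a mixture of cells, a change in the number of expressing cells and a change in RNA per cell cannot be told apart.

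The catalytic sites of the 3 listed flippases and of PISD are shown first, because the rule joined these genes by role alone and the sequences show what the enzymes share. P-type ATPases carry an invariant aspartate, phosphorylated from ATP in each transport cycle, at the start of a short motif known as the P-type ATPase phosphorylation motif. A search of the longest complete coding sequence of each of 13 human P4-ATPase genes in GENCODE release 29 found this motif once in all 13. The stretches below run 5′ to 3′ on the coding strand, with the 15 bases of the motif in capitals and 12 bases on either side.
ATP11A: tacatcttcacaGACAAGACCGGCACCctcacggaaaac
ATP11B: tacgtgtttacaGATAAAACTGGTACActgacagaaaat
ATP8A1: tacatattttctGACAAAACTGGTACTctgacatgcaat
On build GRCh38 these lie at chr13:112831381-112831419 (plus strand, exon 13 of ATP11A), chr3:182865462-182865500 (plus strand, exon 13 of ATP11B) and chr4:42574663-42574701 (minus strand, exon 14 of ATP8A1). The motif begins at codon 414 of 1191 in ATP11A, codon 407 of 1177 in ATP11B and codon 409 of 1164 in ATP8A1. Compared position by position, ATP11A and ATP11B were identical at 28 of 39 bases, ATP11A and ATP8A1 at 25, and ATP11B and ATP8A1 at 30. The motif is thus kept in all 3 genes while its codons differ, with 10 of 15 motif bases identical between ATP11A and ATP11B.

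PISD is made as a precursor that cuts itself at a short autocleavage motif, and the serine at the cut becomes the pyruvoyl group of the active enzyme. The motif was found once, at codon 376 of 409, at chr22:31619693-31619728 on the minus strand in exon 8, with the 12 motif bases in capitals.
PISD: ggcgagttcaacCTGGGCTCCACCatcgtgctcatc

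Promoter windows of 300 bases, from 250 before to 50 after a RefSeq start site (build GRCh38.p14), were matched for 6 of the 9 genes. Those of ANO6 and ATP11A, both of which rose, are printed, and they differ in base composition and in place. No window at the ANO6 gene start was matched, so its window is an internal start site. The pair therefore does not compare the promoters at the starts of these genes. The ATP11A window lies at chr13:112689788-112690087 on the plus strand, with its start site 291 bases upstream of the GENCODE gene start, and has a GC content of 80.3% and 37 CG dinucleotides. The ANO6 window lies at chr12:45292440-45292739 on the plus strand, at a start site 76703 bases inside the GENCODE gene, and has a GC content of 35.7% and 2 CG dinucleotides.
ATP11A: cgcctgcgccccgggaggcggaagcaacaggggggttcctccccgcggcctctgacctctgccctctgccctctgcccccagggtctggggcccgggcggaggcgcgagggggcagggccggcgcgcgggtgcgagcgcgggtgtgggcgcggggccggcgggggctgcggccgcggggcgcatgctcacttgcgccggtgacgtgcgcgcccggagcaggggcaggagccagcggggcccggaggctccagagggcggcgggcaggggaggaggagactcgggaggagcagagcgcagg
ANO6: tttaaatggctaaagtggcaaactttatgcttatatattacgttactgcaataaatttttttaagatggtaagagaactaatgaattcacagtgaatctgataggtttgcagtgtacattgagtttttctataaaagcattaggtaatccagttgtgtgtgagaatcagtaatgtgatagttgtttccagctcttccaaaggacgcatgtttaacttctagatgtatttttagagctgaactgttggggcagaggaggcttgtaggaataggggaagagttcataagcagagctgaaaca
Neither window held, on either strand, the AP-1 letters TGANTCA, the EGR1 letters GCGTGGGCG, the ETS letters CCGGAAGT or the CArG box of SRF, so both stand in lower case. Over all 35116 windows these were found in 7.71%, 0.795%, 4.14% and 1.29%. Among the other matched windows, those of ATP8A1, PTDSS2 and XKR8 held none, and 1 of the 2 PISD windows held an AP-1 match. A match or its lack describes these letters in this window only.

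The 2 synthases did not change detectably. PTDSS1 (ENSG00000156471, chr8:96261715-96336995), which uses phosphatidylcholine, stood at 181, 177 and 177 CPM with DMSO and at 178, 186 and 177 CPM with GSK-A1, in the order of replicates 1 to 3 here and below. The groups overlapped, and only GSK-A1 replicate 2 lay above all DMSO libraries. Its log2 fold change was 0.01 ± 0.04 (SE; 95% interval -0.06 to 0.09; edgeR adjusted p = 0.814). PTDSS2 (ENSG00000174915, chr11:448268-491399), which uses phosphatidylethanolamine, stood at 51.5, 50.3 and 51.7 CPM with DMSO and at 53.6, 50.2 and 53.8 CPM with GSK-A1. GSK-A1 replicate 2 was here the lowest of the 6 libraries, so the groups overlapped. The log2 fold change was 0.04 ± 0.04 (95% interval -0.05 to 0.13; edgeR adjusted p = 0.571). Intervals here are for single genes and are not adjusted for the number of genes. The sign turned for both synthases under upper-quartile library factors (-0.027 for PTDSS1 and -0.0022 for PTDSS2), and PTDSS2 was called higher once the trend on GC content was removed (0.11, edgeR adjusted p = 0.0319).

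PISD (ENSG00000241878, chr22:31618491-31662432), which makes phosphatidylethanolamine from phosphatidylserine in the inner mitochondrial membrane, stood at 39.6, 37.2 and 39.4 CPM with DMSO and at 43.5, 40.6 and 42.5 CPM with GSK-A1. All 3 GSK-A1 libraries lay above the highest DMSO library, with replicate 2 the lowest of its group in both. The log2 fold change was 0.12 ± 0.05 (SE; 95% interval 0.02 to 0.22), with an edgeR adjusted p of 0.0714 that missed the threshold. Without GSK-A1 replicate 2 the gene was called (0.16, edgeR adjusted p = 0.00322), as it was after correction for GC content (0.19, edgeR adjusted p = 0.00181). With library weights it was called too (0.16, limma-voom adjusted p = 0.00285). PISD was not called in the other 13 of 16 alternatives. Among these were the fits without DMSO replicate 2 (0.093, edgeR adjusted p = 0.279) and under upper-quartile factors (0.083, edgeR adjusted p = 0.220). Of its exonic length, 1.92% overlapped exons of SFI1 on the other strand and 1.30% MIR7109 on its own strand.

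**Figure D1:**
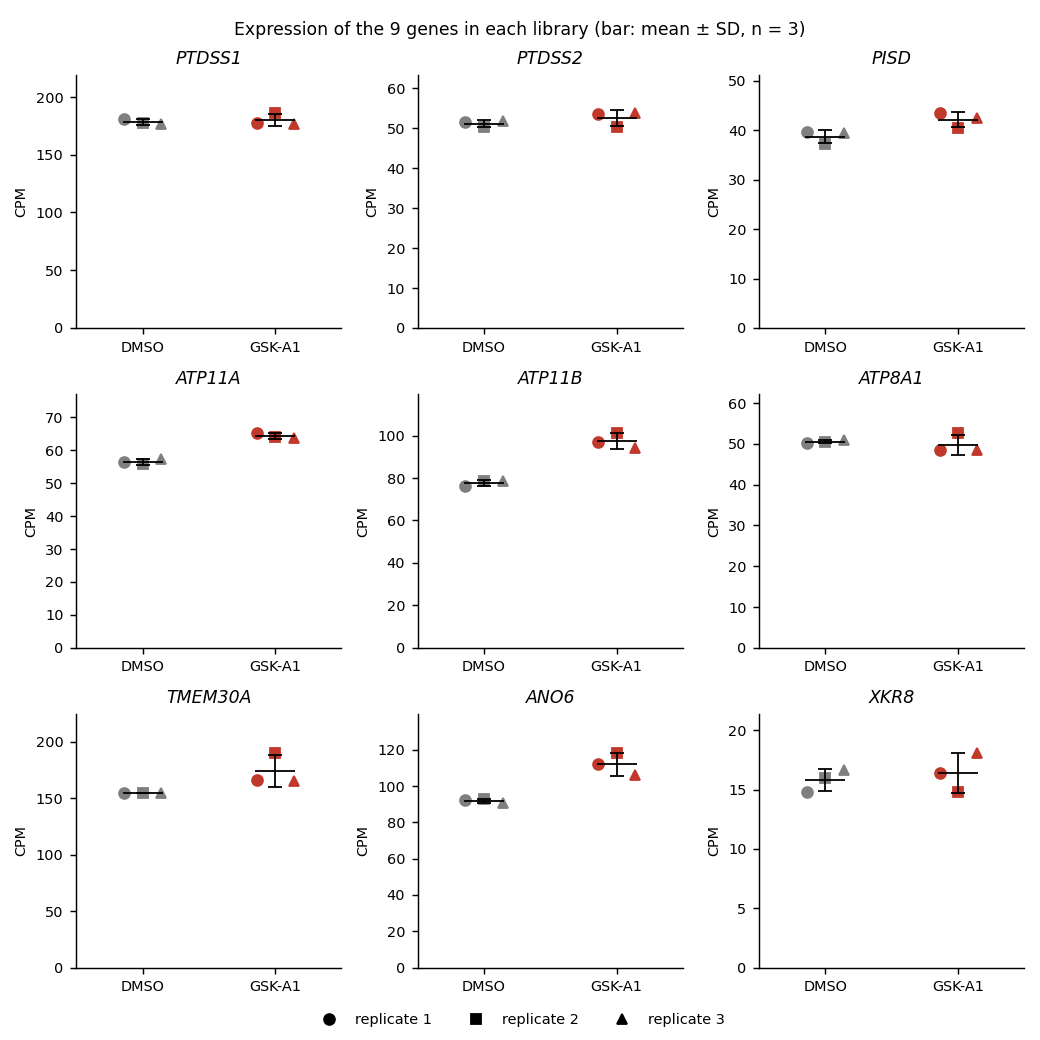
Normalised expression (CPM, axes from 0) of the 9 genes in each of the 6 libraries, by group; points are libraries, shaped by replicate number, and black bars are the mean ± SD (n = 3). In ATP11A, ATP11B, TMEM30A, ANO6 and PISD all GSK-A1 points lie above all DMSO points, and in TMEM30A GSK-A1 replicate 2 stands at 190 CPM above the other 2 at 165 and 166 CPM.

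The flippases split, with ATP11A and ATP11B higher and ATP8A1 not. ATP11B (ENSG00000058063, chr3:182793500-182921635), a flippase of endosomes and the trans-Golgi network, stood at 76.1, 78.5 and 78.6 CPM with DMSO and at 97.0, 101 and 94.0 CPM with GSK-A1. All 3 GSK-A1 libraries lay well above all 3 DMSO libraries, replicate 2 highest. It rose by 25.4% (log2 value 0.33 ± 0.04 SE, edgeR adjusted p = 4.48e-05), the largest change of the 9 genes. AC092953.2, on the other strand, overlapped 4.31% of its exons. The value was 0.30 without GSK-A1 replicate 2, and the call held in all 16 alternatives run.

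ATP11A (ENSG00000068650, chr13:112690329-112887168), which flips phosphatidylserine at the plasma membrane and is cut by caspases during apoptosis, stood at 56.4, 55.7 and 57.3 CPM with DMSO and at 65.2, 64.0 and 63.8 CPM with GSK-A1. The groups were tight and did not overlap, and GSK-A1 replicate 2 lay between the other 2. It rose by 0.19 ± 0.04 on the log2 scale (edgeR adjusted p = 0.00328) and was called in all 16 alternatives. ATP8A1 (ENSG00000124406, chr4:42408373-42657105), a phosphatidylserine flippase found largely on internal membranes, stood at 50.3, 50.6 and 50.9 CPM with DMSO and at 48.5, 52.7 and 48.4 CPM with GSK-A1. Its DMSO libraries all lay inside the GSK-A1 range. The log2 fold change was -0.02 ± 0.05 (95% interval -0.12 to 0.07; edgeR adjusted p = 0.771), and its sign turned without GSK-A1 replicate 1 (0.0063) or replicate 3 (0.0014).

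TMEM30A (ENSG00000112697, chr6:75252924-75284968) encodes CDC50A, the partner that most P4-ATPases need to leave the endoplasmic reticulum. It stood at 155, 154 and 155 CPM with DMSO and at 166, 190 and 165 CPM with GSK-A1. The DMSO libraries were nearly equal (154 ± 0.085 CPM, SD, n = 3), while the GSK-A1 libraries, with replicate 2 far above the other 2, spread more (174 ± 14.2 CPM). With 5121 to 7409 counts per DMSO library, an SD of 0.085 CPM lies under counting noise and is no measure of precision. TMEM30A rose by 12.6% (log2 value 0.17 ± 0.05 SE, edgeR adjusted p = 0.0185). Without GSK-A1 replicate 2 the value was 0.11, still called (edgeR adjusted p = 0.00419). Without DMSO replicate 1, 2 or 3 it was 0.17 in each fit and no longer called (edgeR adjusted p = 0.0756, 0.0772 and 0.0707).

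Of the 2 scramblases, the calcium-activated one rose and the caspase-activated one did not pass. The difference between the changes of these 2 genes was not tested. ANO6 (ENSG00000177119, chr12:45215987-45440404), also called TMEM16F, exposes phosphatidylserine when cytosolic calcium rises and is the gene of Scott syndrome, a bleeding disorder. It stood at 92.3, 92.7 and 90.8 CPM with DMSO and at 112, 118 and 106 CPM with GSK-A1. The groups were well apart, and replicate 2 was again the highest GSK-A1 library. ANO6 rose by 21.9% (log2 value 0.29 ± 0.04 SE, edgeR adjusted p = 2.37e-04). It was 0.25 without GSK-A1 replicate 2 and was called in all 16 alternatives. PLEKHA8P1, on the other strand, overlapped 0.668% of its exons.

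XKR8 (ENSG00000158156, chr1:27959462-27968096) exposes phosphatidylserine after caspases remove its tail in apoptosis. By CPM, which are not divided by length, it was the lowest of the 9 genes. It stood at 14.8, 16.0 and 16.6 CPM with DMSO and at 16.4, 14.8 and 18.1 CPM with GSK-A1. The groups overlapped through most of their range. The log2 fold change was 0.06 ± 0.07 (95% interval -0.09 to 0.22; edgeR adjusted p = 0.591). The value was 0.13 with GSK-A1 replicate 2 left out and -0.0062 with replicate 3 left out. With the GC trend removed it was 0.15, not called (edgeR adjusted p = 0.0714). Transcripts of other genes, chiefly RNF216P1, held 2.12% of the 50-base stretches in its longest transcript.

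**Figure D2:**
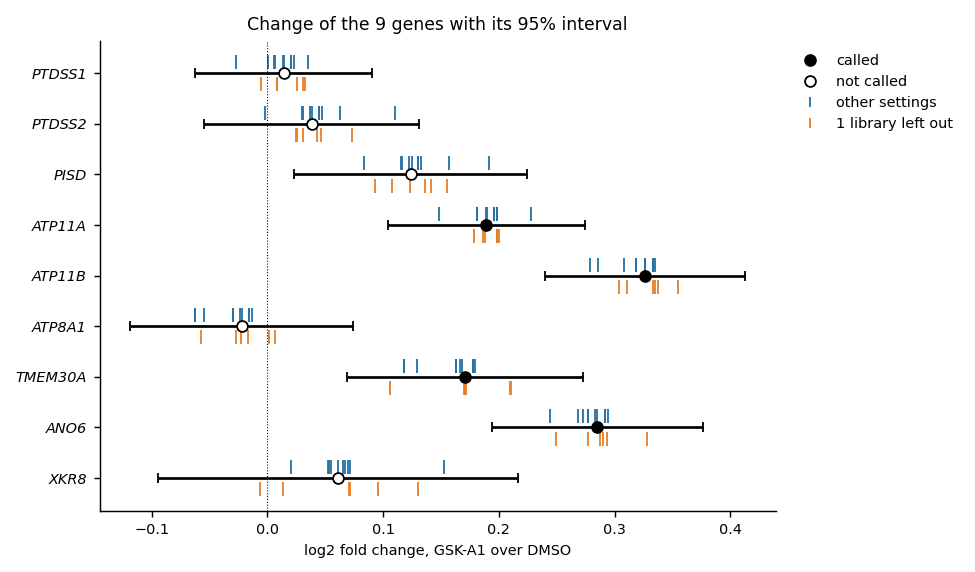
Log2 fold change of GSK-A1 over DMSO for the 9 genes with the 95% interval of each; filled circles passed edgeR at an adjusted p under 0.05, blue marks are the other settings and orange marks the fits without 1 library. ATP11B (0.33), ANO6 (0.29), ATP11A (0.19) and TMEM30A (0.17) lie right of 0 in every setting run, and the marks of PTDSS1, PTDSS2, ATP8A1 and XKR8 fall on both sides of it.

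To compare levels between genes, CPM were divided by the length of the longest GENCODE transcript. With DMSO, PTDSS1 led at 34.4 ± 0.5 CPM per kb (SD, n = 3), followed by TMEM30A at 33.6 ± 0.02, an SD under counting noise. PTDSS2 (16.3 ± 0.2), ANO6 (15.4 ± 0.2) and PISD (14.5 ± 0.5) came next. ATP11B stood at 10.6 ± 0.2, ATP11A at 6.38 ± 0.09, ATP8A1 at 6.12 ± 0.04 and XKR8 at 5.87 ± 0.34 CPM per kb. ATP8A1 and XKR8 did not differ beyond their spread by this length. By the union of all exons XKR8 (5.76 ± 0.34 CPM per kb) stood above ATP8A1 (4.52 ± 0.03 CPM per kb). The order depends on the length used: divided by the union of all exons, TMEM30A came first at 30.2 ± 0.02, PTDSS1 second at 28.3 ± 0.4, PTDSS2 fell to rank 5 (8.37 ± 0.13) and ATP11A was last (4.11 ± 0.06).

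Ratios between genes within a library do not depend on library scaling, and they are given as descriptions with no test. The ratio of ATP11A to ATP11B per kb was 0.614, 0.587 and 0.603 with DMSO and 0.556, 0.523 and 0.562 with GSK-A1. It was lower in all 3 GSK-A1 libraries, a log2 difference of -0.14. ATP11A thus stood lower against its paralog with GSK-A1, although both rose. The ratio of PTDSS1 to PTDSS2 was 2.13, 2.13 and 2.07 with DMSO and 2.01, 2.24 and 1.99 with GSK-A1. These groups overlapped, with GSK-A1 replicate 2 highest. By the union of exons the mean DMSO ratio of these synthases was 3.38 in place of 2.11. That of ATP11A to ATP11B was 0.487 in place of 0.601.

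ANO6 exceeded XKR8 per kb by 2.81, 2.61 and 2.46 times with DMSO and by 3.08, 3.60 and 2.63 times with GSK-A1. The groups overlapped by GSK-A1 replicate 3, which lay inside the DMSO range. TMEM30A over the sum of ATP11A, ATP11B and ATP8A1 stood at 1.47, 1.45 and 1.44 with DMSO and at 1.37, 1.51 and 1.39 with GSK-A1. GSK-A1 replicate 2 lay above and the other 2 below the DMSO libraries. By the union of exons the mean DMSO ratio of ANO6 to XKR8 was 1.94 in place of 2.63. That of TMEM30A to the summed flippases was 1.77 in place of 1.46.

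**Figure D3:**
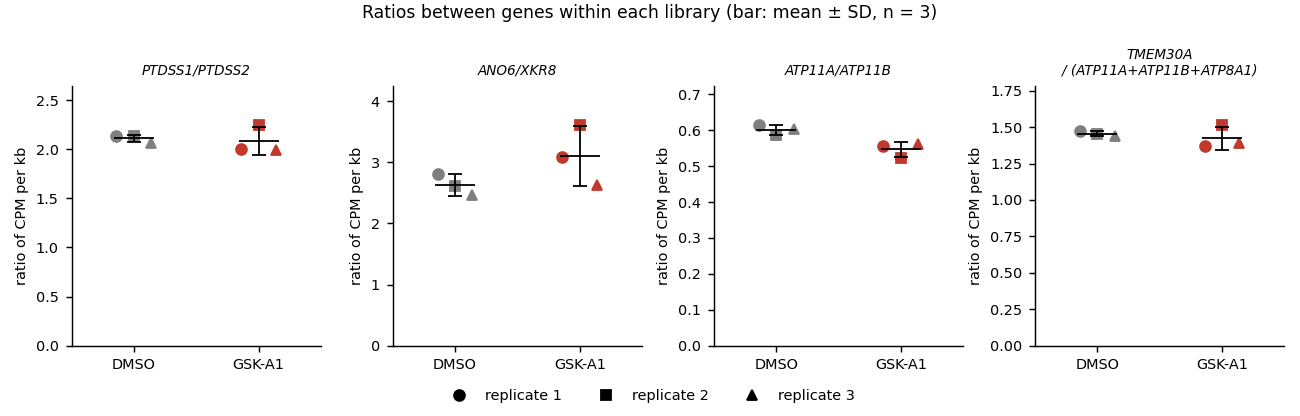
Ratios of CPM per kb (longest transcript) between genes within each library, by group; points are libraries, shaped by replicate number, bars are the mean ± SD (n = 3), and axes start at 0. The ATP11A to ATP11B ratio separates the groups (0.587 to 0.614 with DMSO, 0.523 to 0.562 with GSK-A1), and the other 3 ratios overlap.

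The wider pathway was read from 7 lists with 74 reported genes, the 9 genes among them, of which 57 were tested. Called were 15 higher and 2 lower. Without the 9 genes 13 of 48 tested were called, 11 higher and 2 lower. Over all genes tested 22.9% were called, 12.0% higher and 10.9% lower, and the counts of each list below stand beside these shares. The median log2 fold change of the 48 genes was -0.0054, and 24 of the 48 were positive. Leaving out DMSO replicate 1, 2 or 3 brought the 17 calls to 10 in each fit. The 17 untested genes had at most 10 counts in a library. They included TMEM30B, the paralog of TMEM30A, with 0 counts in all 6 libraries, and the scramblases XKR4 and XKR9 with 4 and 18 counts in total.

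Of the 7 tested genes of phosphatidylserine synthesis and turnover, 0 were called by edgeR, with 2 at an unadjusted p under 0.05, PISD and the acyltransferase LPCAT3 (-0.11 ± 0.05, edgeR adjusted p = 0.122). Exons of EMG1 on the other strand overlapped 65.6% of LPCAT3, and with the strand setting of the counting unknown the reads of both genes may be mixed. Counts of calls in this list were 1 or 2 under upper-quartile factors, library weights, GC correction and without GSK-A1 replicate 2. The lipid hydrolase ABHD12 and the acyltransferase MBOAT1 did not pass (edgeR adjusted p = 0.228 and 0.227). The hydrolase ABHD16A (edgeR adjusted p = 0.906) is uncertain, since 79.0% of its 50-base stretches also lie in AL662899.1 and its count was 61 to 114 in a library.

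Of 12 tested P4-ATPases and CDC50 subunits, 5 rose and 0 fell, and the list's median was -0.0095. The 5 became 3 without DMSO replicate 1, 2 or 3. Beside ATP11A, ATP11B and TMEM30A these were ATP8B3, at a low 1.23, 1.30 and 1.36 CPM with DMSO and 2.55, 2.02 and 2.00 CPM with GSK-A1, and ATP8B1, the bile canalicular flippase of familial cholestasis. ATP8B3 rose by 0.79 ± 0.15 on the log2 scale (edgeR adjusted p = 0.00185), or by 72.4%. ATP8B1 rose by 0.29 ± 0.10 (edgeR adjusted p = 0.0355), a call lost without any DMSO library or GSK-A1 replicate 1 (edgeR adjusted p of 0.0816 to 0.140), under upper-quartile factors and in DESeq2.

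In the TMEM16 family, 2 of 6 tested genes rose and 1 fell. Only 2 of the 6 had a positive log2 fold change, and the list's median was -0.054. ANO4 and ANO10 lay lower in all 3 GSK-A1 libraries than in all 3 DMSO libraries without passing. Their log2 fold changes were -0.57 ± 0.25 (edgeR adjusted p = 0.106) and -0.08 ± 0.06 (edgeR adjusted p = 0.299). ANO4 had 11 to 33 counts in a library. ANO5, a family member mutated in limb-girdle muscular dystrophy, went from 35.6, 35.2 and 36.2 CPM to 41.8, 46.0 and 41.5 CPM, with no overlap. Its log2 fold change of 0.27 ± 0.05 (edgeR adjusted p = 0.00106) was close to that of ANO6, though the difference between the 2 genes was not tested. ANO7 fell by 0.27 ± 0.09 on the log2 scale (edgeR adjusted p = 0.0363), a call lost in the fits without any library other than GSK-A1 replicate 2 (edgeR adjusted p of 0.0510 to 0.159), in DESeq2 and with the GC trend removed.

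Of the 5 tested genes among XK-related scramblases and their partners, XKR8 included, 0 were called by edgeR, nor by DESeq2 or any other of the 16 alternatives, and 0 had an unadjusted p under 0.05. The chaperones BSG (862 CPM with DMSO, 846 with GSK-A1) and NPTN (67.5 and 66.1 CPM), which carry XKR8 to the plasma membrane, had edgeR adjusted p-values of 0.554 and 0.674. XK itself, at a log2 fold change of -0.06, and XKR6, at 5.06 and 5.67 CPM, had edgeR adjusted p-values of 0.601 and 0.228. Of these genes BSG lay lower and XKR6 higher in all 3 GSK-A1 libraries than in all 3 DMSO libraries. The groups of XK, NPTN and XKR8 overlapped. Over all genes tested, the groups did not overlap in 40.5%, so such a separation is common here.

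Of 10 tested genes of other scramblase families 4 rose and 0 fell. SERINC1 (0.21 ± 0.04), SERINC3 (0.18 ± 0.04) and SERINC5 (0.19 ± 0.06) belong to 1 family of multipass membrane proteins, with edgeR adjusted p-values of 9.10e-04, 0.00501 and 0.0324. SERINC5, the remaining called gene of this list, was named after its values were seen, and its call was lost without DMSO replicate 1, 2 or 3 (edgeR adjusted p = 0.144, 0.0843 and 0.0854), without GSK-A1 replicate 2 (0.13, edgeR adjusted p = 0.0528) and under upper-quartile factors. VMP1, a scramblase of the endoplasmic reticulum, rose by 0.23 ± 0.04 (edgeR adjusted p = 0.00137); PTRH2, on the other strand, overlapped 2.34% of its exons.

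Of 9 tested genes of phosphatidylserine transport 2 rose and 1 fell. PRELID3B, which carries phosphatidylserine across the space between the mitochondrial membranes to PISD, went from 109, 106 and 106 CPM to 123, 135 and 123 CPM (log2 fold change 0.25 ± 0.04, edgeR adjusted p = 7.61e-04). Its partner TRIAP1 did not pass (-0.03 ± 0.06, edgeR adjusted p = 0.772). OSBPL6 and OSBPL10 lay higher in all 3 GSK-A1 libraries than in all 3 DMSO libraries without passing. Their log2 fold changes were 0.12 ± 0.05 (edgeR adjusted p = 0.0729) and 0.14 ± 0.05 (edgeR adjusted p = 0.0673). OSBPL5 and OSBPL8 encode ORP5 and ORP8, which exchange phosphatidylinositol 4-phosphate for phosphatidylserine. OSBPL5 fell by 0.18 ± 0.06 on the log2 scale and OSBPL8 rose by 0.15 ± 0.05, both near the threshold (edgeR adjusted p = 0.0436 and 0.0450). OSBPL5 lost its call without any 1 of the 6 libraries (edgeR adjusted p of 0.0563 to 0.156), with no count filter, in DESeq2 and with the GC trend removed (-0.083). OSBPL8 lost it without any DMSO library or GSK-A1 replicate 1 (edgeR adjusted p of 0.0642 to 0.185) and under 5 other settings, and its value was 0.089 without GSK-A1 replicate 2. The list had 1 call in the fits without DMSO replicate 1, 2 or 3 or GSK-A1 replicate 1.

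Of 8 tested genes of proteins that bind or recognise exposed phosphatidylserine 2 rose and 0 fell. MFGE8, a secreted bridge between phosphatidylserine and phagocytes, went from 119, 120 and 123 CPM to 144, 127 and 142 CPM (0.19 ± 0.04, edgeR adjusted p = 0.00621), with GSK-A1 replicate 2 lowest of its group. ANXA5, the calcium-dependent phosphatidylserine binder used to stain apoptotic cells, rose by 0.12 ± 0.04 (edgeR adjusted p = 0.0413), and lost its call without any DMSO library or GSK-A1 replicate 1 (edgeR adjusted p of 0.0672 to 0.186), under upper-quartile factors and with library totals only. The receptor kinases TYRO3 and MERTK did not pass (edgeR adjusted p = 0.994 and 0.743), and AXL had 3 counts in the 6 libraries together.

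**Figure D4:**
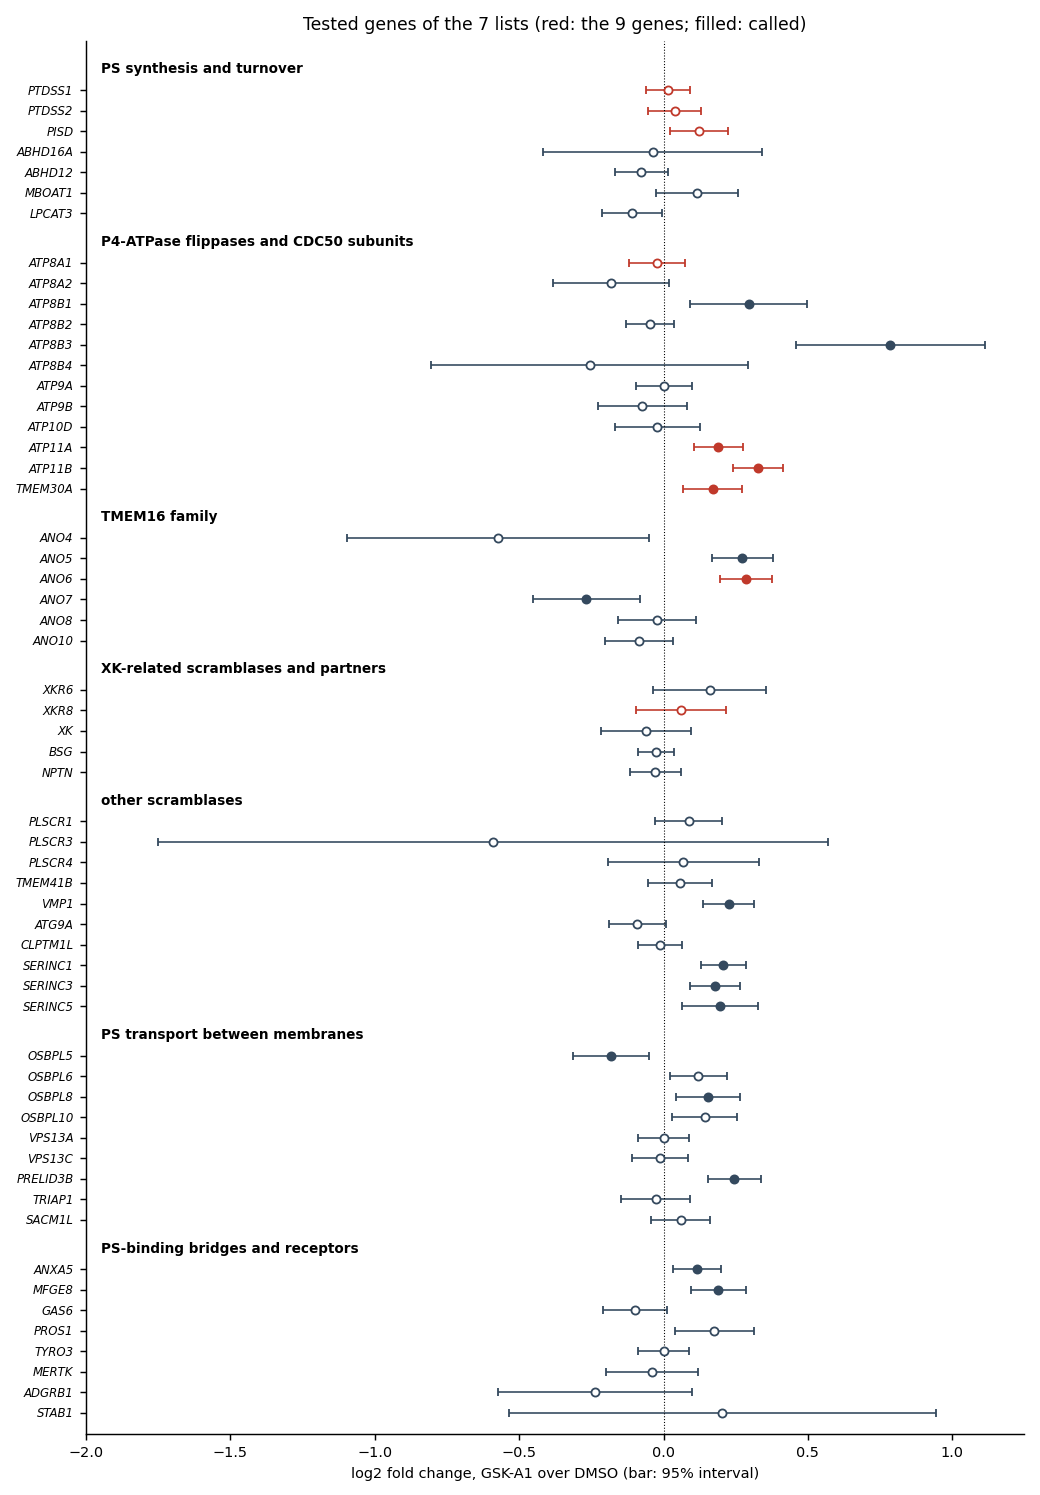
Log2 fold change of GSK-A1 over DMSO with its 95% interval for the 57 tested genes reported of the 7 lists; red marks the 9 genes and filled circles passed edgeR at an adjusted p under 0.05. Among the 17 filled circles, 15 lie right of 0, and ANO7 and OSBPL5 lie left of it.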

How the data were processed

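The deposited table holds whole-number read counts by gene, which the authors did not normalize. The submitters' processing notes name cutadapt 5.1, STAR 2.7.11b, featureCounts (Subread 2.1.1), DESeq2 1.38.0 and build GRCh38.p13. The kit was stranded per the labels' protocols; the strand setting and annotation release of the counting are not given in the sources used here. All libraries carry the same lane label.

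Counts were tested with edgeR 4.0.16 (R 4.3.3): filterByExpr (smallest count 10, smallest total 15), TMM factors, robust dispersions, quasi-likelihood F test over 16754 genes, Benjamini-Hochberg adjustment. Standard errors are the unshrunken log2 coefficient over the square root of F. On simulated counts for 16557 genes, edgeR recovered 44.4% of 99 genes changed by 0.25 (log2) and 72.7% of 99 changed by 0.5. Of the simulated calls 4.92% were false. The simulation changed few genes, whereas 22.9% were called in the data, and it held no library that stood apart like GSK-A1 replicate 2. These shares therefore do not measure recovery or false calls in the data.

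The 9 genes, the 7 lists and the motifs were chosen with earlier results of these data known. Some genes of the lists are not reported here and are left out of their counts. Genes named by rule were all 9, up to 3 called genes of each list by smallest p, PI4KA, and the 3 genes nearest in profile to the called gene with the smallest p in each direction; no gene of the 9 was called lower. SERINC5, the markers with values, and the uncalled and untested list genes that are named were chosen outside this rule, after their values were seen. Gene coordinates, lengths, overlaps and 50-base stretches come from GENCODE release 29 (GRCh38), which may differ from the annotation counted. Promoter windows are RefSeq's. Alternatives were other library factors (RLE, upper quartile, totals only), other filters, a replicate block, DESeq2 1.42.0, limma-voom 3.58.1 with and without library weights, removal of a loess GC trend (span 0.3), an adjusted p under 0.01, and fits without 1 library each; the last were added for the ratios after the data were seen.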

Additional observations from a re-analysis of the deposited data

How the results depend on the processing

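ATP11A, ATP11B and ANO6 kept their direction and their call in all 16 alternatives, between 0.15 and 0.23, 0.28 and 0.35, and 0.24 and 0.33. TMEM30A ranged from 0.11 to 0.21 with 1 library left out, called in 13 of 16 alternatives. PISD, between 0.093 and 0.16 with 1 library left out, was not called in 13 of 16 alternatives. It was called with library weights (0.16), with the GC trend removed (0.19) and without GSK-A1 replicate 2 (0.16). PTDSS2 was called in the fit with the GC trend removed alone (0.11). Signs turned for PTDSS1 (-0.027) and PTDSS2 (-0.0022) under upper-quartile factors and for PI4KA with the GC trend removed (0.019). They also turned with 1 library left out, with ranges of -0.0053 to 0.032 for PTDSS1, -0.058 to 0.0063 for ATP8A1 and -0.0062 to 0.13 for XKR8. The cause was not tested. Over all genes, 3835 calls became 1871 at an adjusted p under 0.01. With 1 library left out they were 2163 to 4890, the most without GSK-A1 replicate 2. Of the 3835 calls 52.3% were higher, against 33.3% under upper-quartile factors and 63.9% with the GC trend removed. Calls in the 7 lists, 17, were 10 to 16 with 1 library left out. With the union of exons, which is never shorter than the longest transcript, the level per kb fell by more than 1 SD in 8 of 9 genes. The size of that fall is set by the annotation.

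With the replicate number as a block the called genes of the 9 were the same 4, and TMEM30A had an edgeR adjusted p of 0.00673. Same-numbered libraries correlated in their deviations from the group means at only 0.011 to 0.032. This lay under the threshold of 0.1, so the numbers were not taken to pair the samples. Yet 5 of 6 libraries correlated best with their own number, and whether a weak pairing exists was not tested. The block gave 4127 calls over all genes and 18 in the lists.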

Other observations

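ATP11B had the smallest p of the 9 genes, and the 3 genes nearest to its profile were sought by the root mean square difference of centred log2 CPM over the 6 libraries, among 12815 genes with a symbol and a mean of at least 1 CPM. They were TMEM170A (0.016), PPP1R15B (0.018) and EZR (0.018). TMEM170A, a membrane protein gene, rose from 25.3 ± 0.3 to 31.4 ± 0.8 CPM (mean ± SD over 3 libraries), or by 0.31 ± 0.05 on the log2 scale (edgeR adjusted p = 3.52e-04). PPP1R15B, a regulatory subunit that directs protein phosphatase 1 to the initiation factor eIF2, rose from 142 ± 3 to 181 ± 7 CPM (0.35 ± 0.04, edgeR adjusted p = 1.28e-05). EZR encodes ezrin, which links actin to the plasma membrane, and rose from 212 ± 2 to 272 ± 10 CPM (0.36 ± 0.04, edgeR adjusted p = 5.09e-06). The 3 genes were picked for this likeness, so their rise beside ATP11B is a description.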
